A study of Mus musculus with 12 samples.

Results

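The genes described here are the 10 members of the R-spondin, LGR and ZNRF3/RNF43 axis: the secreted ligands Rspo1, Rspo2 and Rspo3, the receptors Lgr4, Lgr5 and Lgr6, the membrane ubiquitin ligases Znrf3 and Rnf43, and the Wnt co-receptors Lrp5 and Lrp6. They were taken by gene symbol from a table of read counts for 25210 genes, and each of the 10 symbols matched 1 row. The genes were followed in organoids (small 3-dimensional epithelial cultures) made from the mammary glands of virgin female FVB/N mice aged 8 to 11 weeks. All were cultured for 7 days in minimal medium inside Matrigel, a basement membrane gel depleted of growth factors. They received the vehicle dimethyl sulfoxide (DMSO) or CHIR99021, an inhibitor of the kinase GSK3, at 1, 1.5 or 3 µM. Each of 3 cultures, 1 from each of 3 animals, received all 4 treatments, which gives 12 bulk libraries of polyadenylated RNA, 3 per group. The cultures are called 1, 2 and 3 by their replicate number in the labels, whose titles also mark them med (1), min (2) and max (3), words that are not explained there.

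R-spondins are secreted proteins that make cells more responsive to WNT. They bind an LGR receptor together with ZNRF3 or RNF43, transmembrane ligases that mark Frizzled receptors and LRP5/6 for removal from the cell surface, and the bound ligase is itself cleared from the membrane. WNT then signals through Frizzled and LRP5/6 to stabilise β-catenin, and Znrf3, Rnf43 and Lgr5 are known in several tissues as target genes of this signal. CHIR99021 stabilises β-catenin inside the cell, below these surface proteins. In the mammary gland Lgr5 is known from basal cells, and Lgr4 and Lgr6 are its closest relatives.

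Libraries held 10129264 to 24485855 counts. Levels are in CPM, the counts of a gene per 1000000 counts of its library after scaling between libraries. The feedback target Axin2 stood at 2.26 to 3.24 CPM in the DMSO libraries and at 52.4 to 132 CPM in the 3 µM libraries. All 5 epithelial markers examined (Epcam, Cdh1, Krt8, Krt18 and Krt19) had at least 2994 counts in every library. At 3 µM Krt19 (log2 change -2.11), Krt8 (-0.75) and Krt18 (-0.48) fell, and Epcam and Cdh1 did not pass the test. Of 9 luminal hormone-sensing markers, 3 fell (Esr1, Pgr and Prlr) and 3 rose (Wnt4, Areg and Ly6a), and of 8 luminal progenitor or alveolar markers, 2 fell (Aldh1a3 and Lalba) and 1 rose (Lcn2). With the culture as a block, 3 epithelial markers fell and 1 rose. For the progenitor or alveolar markers 3 then fell and 2 rose. Of all genes tested, 57.5% were called at 3 µM, and 68.9% with the block. Marker counts at 3 µM are to be read against these shares. The part of these marker shifts in the members' results was not tested. RNA of other cell types was present as well. The summed level of 8 fibroblast markers ran from 4093 to 24459 CPM in DMSO and from 229.7 to 5366 CPM at 3 µM, that of 5 endothelial markers from 218 to 471 and from 23.8 to 80.7 CPM, and that of 6 immune markers from 35.6 to 254 and from 11.1 to 53.4 CPM. The T cell marker Cd3e was at 0 in 8 of the 12 libraries. The squamous keratinocyte markers rose at 3 µM (8 of 8), and their summed level went from 32.9 to 73.9 CPM in DMSO to 9183 to 33482 CPM. In bulk RNA, fewer cells of a type and less RNA per cell cannot be told apart.

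The paralogs within each role can be separated by reads, since their annotated transcripts share only short identical runs. The sequences below show the longest coding run shared by each pair of Lgr genes and by the ligases, because the comparison of paralogs rests on reads being assigned to the right copy. Capitals mark the shared bases and lower case the 20 bases on either side, written in the sense of the gene from the GRCm38 genome with GENCODE M21 exons. Lgr4 and Lgr5 shared at most 15 bases, in exon 16 of 18 of both genes, at chr2:110008090-110008144 (plus strand) and chr10:115456734-115456788 (minus strand).
Lgr4: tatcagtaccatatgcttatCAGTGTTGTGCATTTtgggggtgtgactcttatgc
Lgr5: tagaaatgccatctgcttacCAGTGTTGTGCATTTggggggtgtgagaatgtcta
Lgr4 and Lgr6 shared at most 17 bases, in exon 5 of 18 of both genes, at chr2:109996677-109996733 (plus strand) and chr1:135027088-135027144 (minus strand).
Lgr4: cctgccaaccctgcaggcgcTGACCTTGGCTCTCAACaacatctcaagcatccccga
Lgr6: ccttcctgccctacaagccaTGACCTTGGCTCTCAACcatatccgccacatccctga
Lgr5 and Lgr6 shared at most 18 bases, in windows that span the junction of exons 1 and 2 of both genes, with outer ends at chr10:115520639-115587300 and chr1:135075260-135104947 (minus strand).
Lgr5: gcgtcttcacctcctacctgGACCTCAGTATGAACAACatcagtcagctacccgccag
Lgr6: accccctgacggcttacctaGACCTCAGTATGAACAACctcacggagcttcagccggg
Znrf3 and Rnf43 shared at most 20 bases, in exon 8 of 9 at chr11:5281735-5281794 (minus strand) and exon 9 of 10 at chr11:87731537-87731596 (plus strand).
Znrf3: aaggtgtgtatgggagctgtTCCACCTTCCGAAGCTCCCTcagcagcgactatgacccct
Rnf43: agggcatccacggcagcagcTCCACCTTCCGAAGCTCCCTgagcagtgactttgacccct
Lrp5 and Lrp6 shared at most 22 bases, and the R-spondin pairs 12 to 14. Of annotated neighbours, the antisense gene Gm48159 shares 404 exon bases with Rspo3 on the other strand. Whether reads were counted by strand is not given in the sources used here, so Rspo3 counts may include reads from it.

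All 10 members passed the filter on low counts and were tested among 15316 genes with edgeR's quasi-likelihood test, with Benjamini-Hochberg adjustment over all of them and a threshold of 0.05. At 1 µM against DMSO, 0 of the 10 members passed, beside 0.242% of all genes tested, and 1798 genes had an unadjusted p under the threshold. At 1.5 µM, 3 of 10 passed against 27.3% of all genes: Znrf3 and Rnf43 were higher (15.4% of all genes were higher) and Lgr5 was lower (11.8% were lower). At 3 µM, 7 of 10 passed against 57.5% of all genes. Znrf3 and Rnf43 were higher (29.9% of all genes), and Lgr4, Lgr5, Rspo1, Rspo2 and Lrp6 were lower (27.7% of all genes). In this fit the share of members called was thus near the share of all genes at both doses. With the culture as a block, 1 member was called at 1 µM beside 5.61% of all genes, 6 at 1.5 µM beside 46.7%, and 8 at 3 µM beside 68.9%. A linear term in dose was called for these 7 genes, beside 58.2% of all genes, 30.2% rising and 28% falling. The Rnf43 slope was lost with scaling by library size only (adjusted p = 0.189), without a filter on low counts (0.0673) and without any 1 of 4 libraries (each DMSO replicate and 3 µM replicate 1, up to 0.0993). Between neighbouring doses, Lgr5 alone was called from 1 to 1.5 µM (lower, beside 0.992% of all genes lower and 5.43% in either direction). From 1.5 to 3 µM, Znrf3 rose and Lgr5 fell, beside 29.7% of all genes called, 17% higher and 12.7% lower. With the block 3 members were called at each step, beside 21.9% and 46.7% of all genes. Leaving out culture 2 ended more calls than leaving out any other culture. At 1.5 µM 0 members were then called beside 2.98% of all genes (adjusted p = 0.0585 for Lgr5, 0.199 for Znrf3 and 0.186 for Rnf43). At 3 µM only Lgr5 and Znrf3 were, beside 31.1% of all genes, with 0.0603 for Lrp6, 0.134 for Lgr4, 0.143 for Rnf43, 0.127 for Rspo1 and 0.227 for Rspo2. Comparisons with DMSO share the same 3 control libraries.

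**Figure D1:**
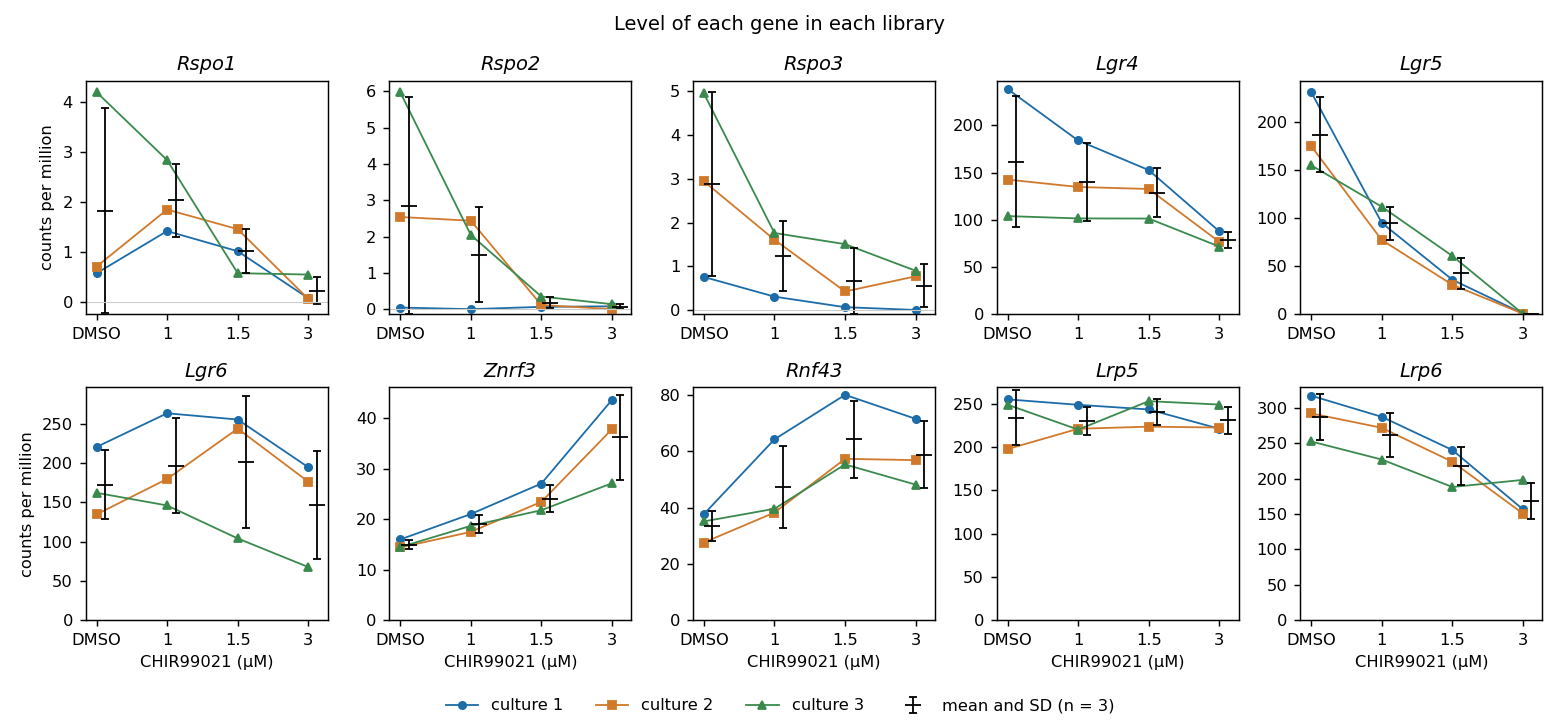
Level of each of the 10 genes in CPM (vertical axes, linear, a scale of its own per gene) in each of the 12 libraries, by dose of CHIR99021, with lines joining the libraries of 1 culture and black bars for the mean and SD of 3 libraries. Lgr5 goes from 155 to 232 CPM in DMSO to under 0.5 CPM at 3 µM in all 3 cultures, Znrf3 is higher at each higher dose, and Lrp5 stays between 198 and 255 CPM.

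The R-spondins were the least abundant members in DMSO, Rspo1 and Rspo2 fell at 3 µM, and levels differed widely between cultures. Rspo1, a ligand of the LGR receptors (chromosome 4, 124986430-125009099, plus strand), had 13, 7 and 78 counts in DMSO cultures 1, 2 and 3. It had 28, 38 and 50 counts at 1 µM, 16, 38 and 10 at 1.5 µM, and 1, 1 and 8 at 3 µM. In CPM these are 0.578, 0.711 and 4.20 in DMSO and 0.0784, 0.0642 and 0.552 at 3 µM. The 3 µM libraries lay below every DMSO library, although 2 of the 3 cultures first went up at 1 and 1.5 µM. The log2 fold change at 3 µM was -2.96 ± 0.96 (SE, adjusted p = 0.0228), lower in 3 of 3 cultures. Without DMSO replicate 3, 3 µM replicate 1 or 3 µM replicate 2 the call was lost, with an adjusted p of up to 0.158, and without DMSO replicate 3 the log2 change was -1.46. It was also lost with only DMSO and 3 µM fitted (adjusted p = 0.0690) and without culture 1 or 2 (up to 0.127).

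Rspo2 (chromosome 15, 43020811-43170818, minus strand) was nearly absent from culture 1 at every dose. It had 1, 25 and 111 counts in DMSO, 0, 50 and 36 at 1 µM, 1, 3 and 6 at 1.5 µM, and 1, 0 and 2 at 3 µM. The fall therefore rests on cultures 2 and 3, where CPM went from 2.54 and 5.98 in DMSO to 0 and 0.138 at 3 µM, while culture 1 held 0.0444 CPM in DMSO and 0.0784 CPM at 3 µM. A count of 0 in a library allows up to 3 counts, and such bounds cover counting error only. At 3 µM the log2 fold change was -5.20 ± 1.84 (adjusted p = 0.0330). Summed over the group, 137 counts in DMSO stood against 3 at 3 µM, a 38.4-fold lower level after scaling with a 95% counting interval of 12.9 to 189. The call was lost without any 1 of 5 libraries (DMSO replicates 2 and 3 and each 3 µM replicate), with an adjusted p of up to 0.117, without culture 3 (0.199) and without a filter on low counts (0.0544). At 1.5 µM the log2 change of -3.99 missed the threshold (adjusted p = 0.0871), but with the culture as a block it was called (adjusted p = 0.00359).

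Rspo3 (chromosome 10, 29453109-29535867, minus strand) had 17, 29 and 92 counts in DMSO, 6, 33 and 31 at 1 µM, 1, 11 and 26 at 1.5 µM, and 0, 12 and 13 at 3 µM. In CPM it went from 0.755, 2.94 and 4.95 in DMSO to 0, 0.770 and 0.897 at 3 µM. All 3 cultures ended lower than they began, but the groups overlapped, because DMSO culture 1 lay below 3 µM cultures 2 and 3. The log2 fold change at 3 µM was -2.33 ± 1.16 and was not called (adjusted p = 0.109). With the culture as a block it was -2.43 and was called (adjusted p = 0.00136), and likewise at 1.5 µM (-2.30, adjusted p = 0.00280).

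The order of the cultures was the same for Rspo3 and for the fibroblast and immune markers: culture 1 lowest and culture 3 highest in 4 of 4 groups. Rspo1 and Rspo2 kept that order in 2 of 4 groups, and the endothelial markers in 3 of 4. Fibroblast marker sums in cultures 1, 2 and 3 were 4093, 9768 and 24459 CPM in DMSO and 229.7, 1148 and 5366 CPM at 3 µM. The sum was lower at 3 µM in 3 of 3 cultures. Of the 8 fibroblast markers, 1 fell at 3 µM (Postn) and 0 rose in the fit without the culture, with a median log2 change of -2.18 beside -0.03 over all genes. With the culture as a block, 7 of the 8 fell. Set against these sums, Rspo3 gave 0.185, 0.302 and 0.203 CPM per 1000 fibroblast marker CPM in DMSO and 0, 0.671 and 0.167 at 3 µM. Rspo1 gave 0.141, 0.0728 and 0.172 in DMSO and 0.341, 0.0559 and 0.103 at 3 µM. Rspo2 gave 0.0109, 0.260 and 0.244 in DMSO and 0.341, 0 and 0.0257 at 3 µM. The 3 µM values of Rspo1 and Rspo2 in culture 1 rest on 1 count each. Set against the marker sum, Rspo1 and Rspo2 were lower at 3 µM than in DMSO in cultures 2 and 3 and higher in culture 1. Rspo3 was lower in culture 3 and higher in culture 2, and its direction in culture 1 is not settled. There the count of 0 at 3 µM allows up to 3 counts, or 0.235 CPM, beside a marker sum of 229.7 CPM. In the fit without the culture, endothelial markers also fell at 3 µM (4 of 5, median log2 change -2.84). So did immune markers (3 of 4 tested, median -3.91). The part of fibroblast, endothelial or immune RNA in the lower ligand levels was not tested.

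**Figure D2:**
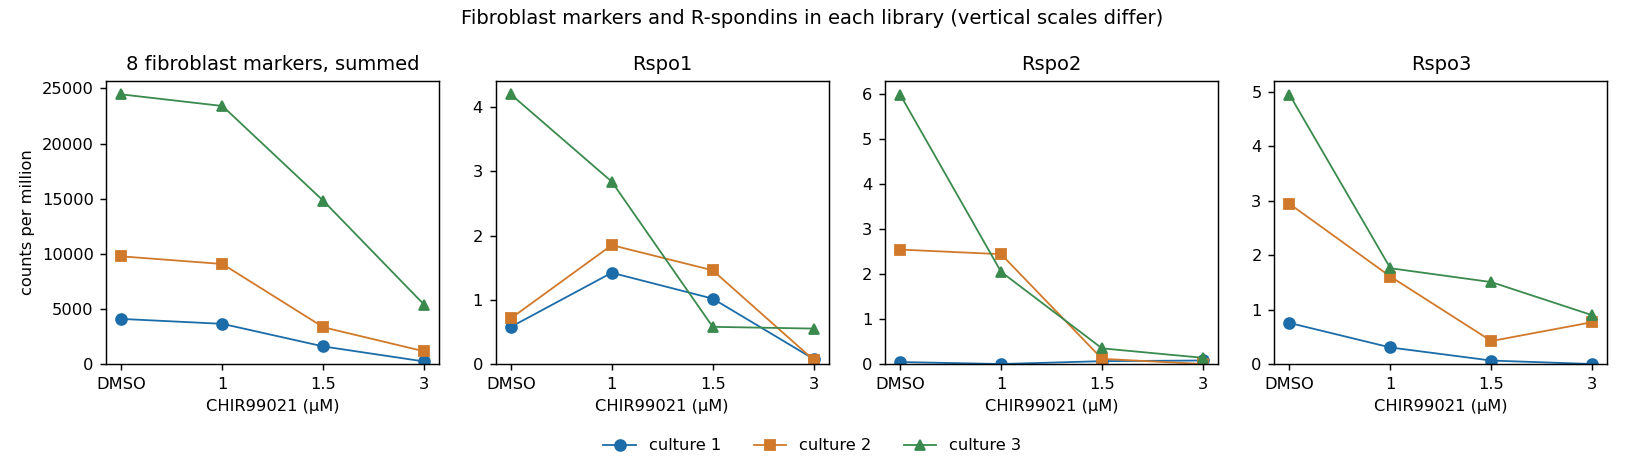
Summed level of 8 fibroblast markers (left) and levels of Rspo1, Rspo2 and Rspo3, all in CPM on linear axes with different scales, by dose of CHIR99021, with 1 line for each culture. Culture 3 has the highest fibroblast sum at every dose (24459 CPM in DMSO, 5366 CPM at 3 µM) and culture 1 the lowest, and Rspo3 shows the same order of cultures.

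The receptors took different courses with dose. Lgr5 (chromosome 10, 115450311-115587780, minus strand), a Wnt target gene and stem cell marker in several epithelia, was lower at each higher dose in every culture. It stood at 232, 175 and 155 CPM in DMSO cultures 1, 2 and 3, at 95.1, 77.2 and 112 CPM at 1 µM, and at 35.7, 30.5 and 60.5 CPM at 1.5 µM. At 3 µM only 6, 4 and 2 counts remained, which is 0.470, 0.257 and 0.138 CPM. No 2 groups overlapped. The log2 fold change from DMSO was -2.15 ± 0.29 at 1.5 µM (adjusted p = 0.000827) and -9.34 ± 0.45 at 3 µM (adjusted p = 8.92e-07). Summed over each group, 9821 counts in DMSO stood against 12 at 3 µM, a 688-fold lower level after scaling with a 95% counting interval of 394 to 1333.

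At 1 µM the mean Lgr5 level had already gone from 187 ± 39.6 to 94.8 ± 17.4 CPM (SD, n = 3), with all 3 cultures lower. That log2 change of -0.98 ± 0.28 missed the threshold over all genes (adjusted p = 0.184), whereas with the culture as a block (adjusted p = 0.0387) and with DESeq2 (adjusted p = 0.0283) it was called. From 1 to 1.5 µM the fall of 1.17 on the log2 scale was called (adjusted p = 0.0393). That call was lost without any 1 of 7 libraries (each 1 µM replicate, 1.5 µM replicates 1 and 2, DMSO replicate 2 and 3 µM replicate 2), with an adjusted p of up to 0.156, without a filter on low counts (0.0527) and with only the 2 groups fitted (0.0693). The step from 1.5 to 3 µM, -7.19 ± 0.43 (adjusted p = 3.42e-05), was the largest of the 3 steps.

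Basal cell markers moved in both directions beside Lgr5. Of 9 such markers, 6 fell at 3 µM and 3 rose. Acta2 (smooth muscle actin) and Oxtr (the oxytocin receptor), genes of the contractile program, had log2 changes of -4.55 and -7.10 and both fell. Krt5 and Krt14, the basal keratins, rose by 3.42 and 3.84, and the basal transcription factor Trp63 by 2.68. The median log2 change of the 9 markers was -4.55. The summed basal level was 2198 to 3455 CPM in DMSO and 14465 to 31320 CPM at 3 µM. This sum mostly follows Krt14 and Krt5, which reached 317042 and 164224 counts in a library. Of the other basal markers none exceeded 7949 counts. The part of the basal markers in the Lgr5 result was not tested.

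Lgr4 (chromosome 2, 109917647-110014257, plus strand), which binds all R-spondins, did not pass the test at 1 or 1.5 µM and fell at 3 µM. It stood at 239, 143 and 104 CPM in DMSO cultures 1, 2 and 3, at 184, 135 and 101 CPM at 1 µM, at 153, 133 and 101 CPM at 1.5 µM, and at 87.7, 76.5 and 71.5 CPM at 3 µM. Each 3 µM library lay below every library of the other groups, and culture 1 was highest and culture 3 lowest in 4 of 4 groups. The log2 fold change at 3 µM was -1.04 ± 0.31 (adjusted p = 0.0145), lower in 3 of 3 cultures. Without DMSO replicate 1 it was -0.65 with an adjusted p of 0.0571. The step from 1.5 to 3 µM, -0.71 ± 0.30, missed the threshold (adjusted p = 0.102) but was called with the culture as a block (adjusted p = 0.00479) and with scaling by library size only (adjusted p = 0.0379).

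Lgr6 (chromosome 1, 134983301-135105276, minus strand), the third R-spondin receptor, followed no common course from DMSO to 1.5 µM. Cultures 1, 2 and 3 stood at 221, 135 and 162 CPM in DMSO, at 263, 180 and 146 CPM at 1 µM, at 255, 244 and 104 CPM at 1.5 µM, and at 195, 176 and 67.8 CPM at 3 µM. In culture 3 it was lower at each higher dose, while in cultures 1 and 2 it was higher at 1 and 1.5 µM than in DMSO. From 1.5 to 3 µM it was lower in 3 of 3 cultures, by a log2 change not called (-0.46 ± 0.43, adjusted p = 0.449, edgeR). At 3 µM culture 1 lay below its DMSO level and culture 2 above it. The groups overlapped in every comparison. The log2 changes from DMSO were 0.19 ± 0.43, 0.22 ± 0.43 and -0.24 ± 0.43 at the 3 doses, with adjusted p-values of 0.919, 0.737 and 0.656.

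**Figure D3:**
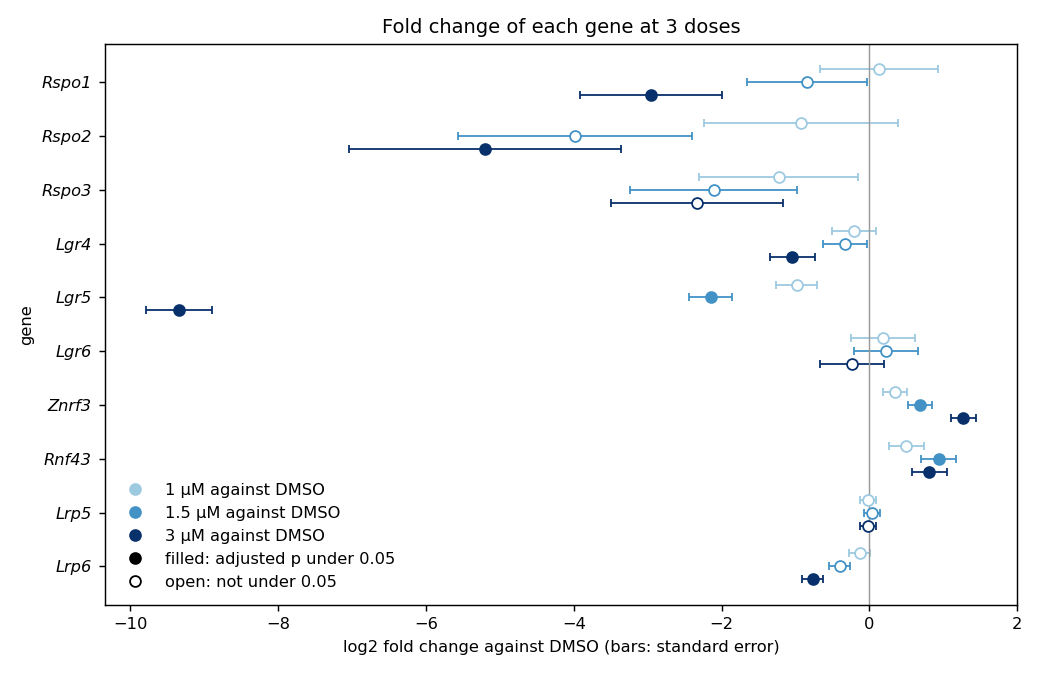
Log2 fold change against DMSO (horizontal axis) with its standard error for each gene at 1, 1.5 and 3 µM CHIR99021, from edgeR's quasi-likelihood fit, with filled points where the adjusted p was under 0.05. Lgr5 at 3 µM lies far to the left at -9.34, the points of Znrf3 and Rnf43 lie to the right of 0 at all doses, and those of Lrp5 lie on 0.

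The Lgr paralogs were next compared within each library, where library size and scaling cancel, by the log2 ratio of their counts with 0.5 added to each. The slope of each ratio on dose was tested by exact permutation of the doses within each culture (13824 arrangements, two-sided), with adjustment over 5 pairs of paralogs. The log2 ratio of Lgr5 to Lgr4 was -0.04, 0.30 and 0.58 in DMSO cultures 1, 2 and 3, and -7.43, -8.05 and -8.70 at 3 µM. It fell at every step in 3 of 3 cultures, with a mean slope of -2.88 ± 0.34 per µM (SD over 3 cultures, exact permutation p = 7.23e-05, the smallest these arrangements can give, adjusted p = 0.000181). The ratio of Lgr6 to Lgr5 rose at every step in 3 of 3 cultures, from -0.07, -0.38 and 0.06 in DMSO to 8.58, 9.25 and 8.62 at 3 µM, with a slope of 3.07 ± 0.20 per µM (adjusted p = 0.000181, exact permutation). Without the 3 µM group the slopes were -1.22 and 1.50 per µM, both still past the threshold (adjusted p = 0.0231, exact permutation).

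Lgr6 and Lgr4 did not part in the same direction in all cultures. Their log2 ratio was higher at each higher dose in cultures 1 and 2, from -0.11 and -0.08 in DMSO to 1.15 and 1.20 at 3 µM, and lower at each higher dose in culture 3, from 0.64 to -0.08. The slopes were 0.41, 0.43 and -0.26 per µM in cultures 1, 2 and 3, and their mean of 0.20 missed the threshold (exact permutation p = 0.143, adjusted p = 0.143). The mean slope was 0.087 without culture 1, 0.077 without culture 2 and 0.42 without culture 3, the culture with the opposite sign. Of these only the slope without culture 3 passed the threshold (adjusted p = 0.00434, exact permutation).

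**Figure D4:**
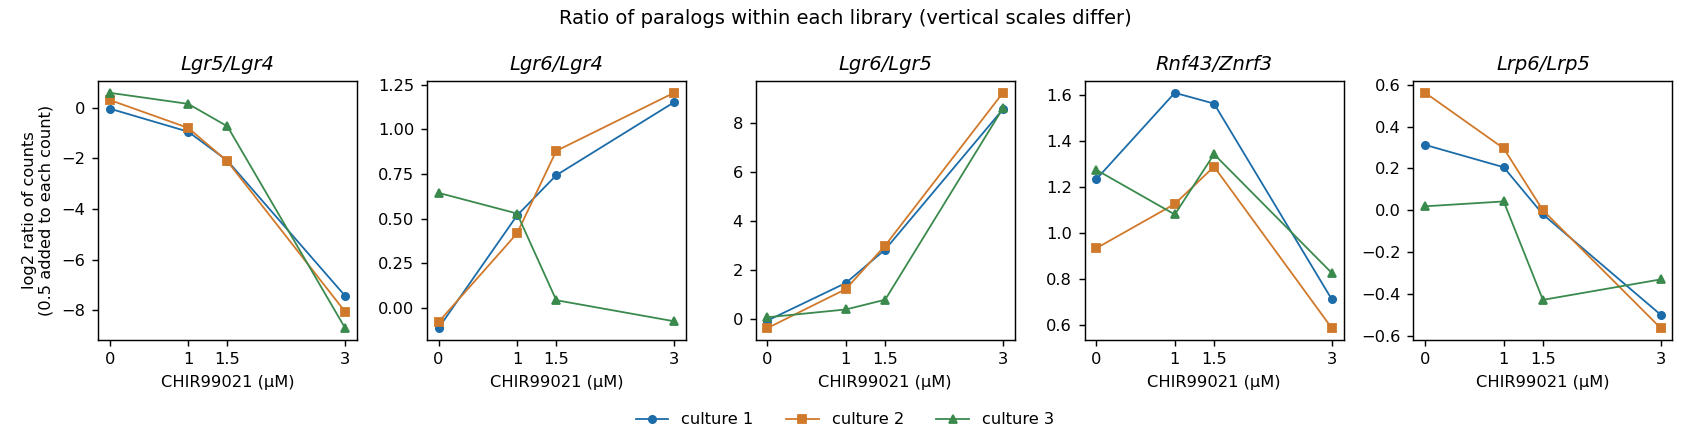
Log2 ratio of counts of 5 paralog pairs (vertical axes, scales differ) against the dose of CHIR99021 in µM, with 1 line for each culture. Lgr5 falls against Lgr4 and Lgr6 in all 3 cultures, Lgr6 against Lgr4 is higher at 3 µM than in DMSO in cultures 1 and 2 and lower in culture 3, and Lrp6 is lower against Lrp5 at 3 µM than in DMSO in every culture.

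Levels of different genes were compared per length, as CPM per kb of exon (RPKM). The lengths join the exons of all annotated transcripts, so a gene read mostly as a shorter transcript, as may be the case for Lgr5 with its 10.264 kb, is understated. In DMSO the order was Lgr4 (27.5 ± 11.8 RPKM, SD, n = 3), Lgr6 (25.2 ± 6.4), Lrp5 (24.02 ± 3.24), Lrp6 (21.0 ± 2.4) and Lgr5 (18.3 ± 3.9). Each of these overlapped its neighbour in the order. Rnf43 (5.10 ± 0.80) and Znrf3 (1.90 ± 0.11) followed, with no overlap between Lgr5 and Rnf43 or between Rnf43 and Znrf3. Rspo1, Rspo3 and Rspo2 came last with means of 0.944, 0.934 and 0.558. Their ranges overlapped one another, and Znrf3 (1.83 to 2.03) lay within the range of Rspo1, which reached 2.17. At 3 µM Lrp5 was first (23.7 ± 1.6 RPKM), its range overlapping that of Lgr6 (21.4 ± 10.01), followed by Lgr4 (13.3 ± 1.4) and Lrp6 (12.3 ± 1.9). Lgr5 stood at 0.0281 ± 0.0164 RPKM at 3 µM, among the R-spondins and below both ligases.

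Of the summed Lgr4, Lgr5 and Lgr6 level, Lgr5 made up 23.7%, 28.0% and 26.8% in DMSO cultures 1, 2 and 3. The share was 11.7%, 13.3% and 22.1% at 1 µM, 5.22%, 4.86% and 15.4% at 1.5 µM, and 0.106%, 0.0645% and 0.0609% at 3 µM. Culture 3 kept the largest Lgr5 share at both intermediate doses. Lgr6 took 33.8%, 32.3% and 42.0% of the sum in DMSO and 65.5%, 66.4% and 44.9% at 3 µM, and Lgr4 42.6%, 39.7% and 31.3% in DMSO and 34.3%, 33.5% and 55.1% at 3 µM. At 3 µM Lgr6 was thus the larger share in cultures 1 and 2, and Lgr4 in culture 3. The sum of the 3 receptors went from 70.9 ± 21.3 RPKM in DMSO through 61.7 ± 15.4 and 55.4 ± 15.0 to 34.7 ± 11.2 RPKM at 3 µM.

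**Figure D5:**
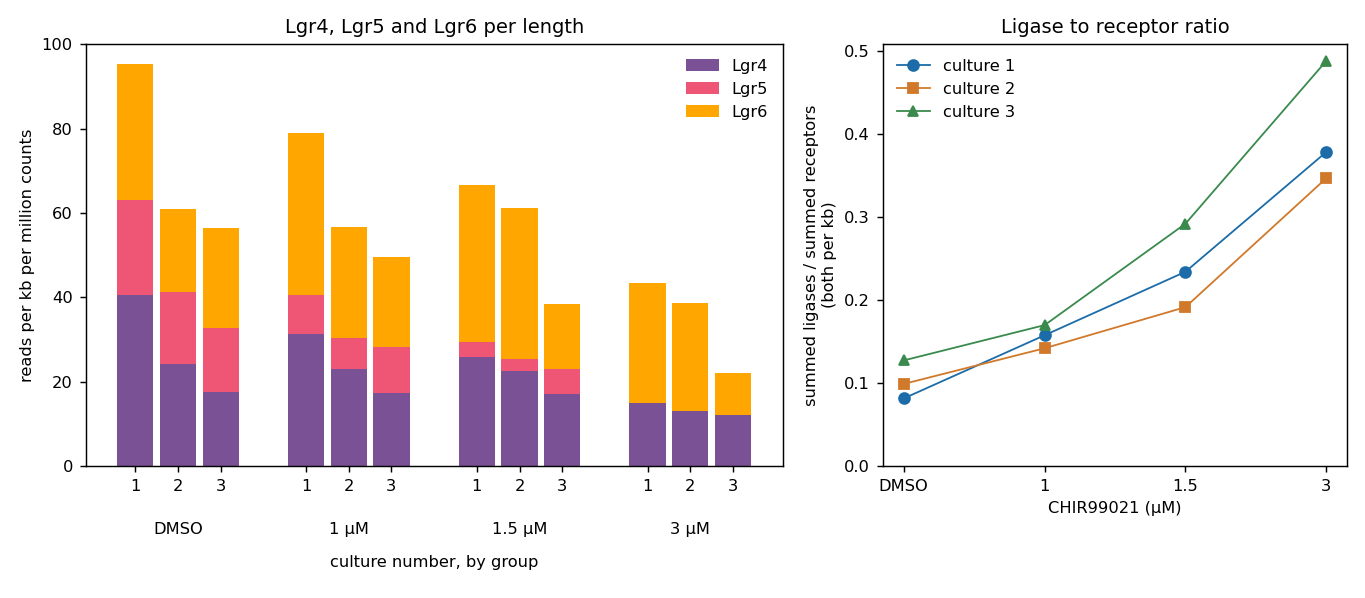
Left, stacked bars of Lgr4, Lgr5 and Lgr6 per length (CPM per kb of exon, from 0) for each culture in each group. Right, the summed level of Znrf3 and Rnf43 divided by that of the 3 receptors, by dose of CHIR99021, with 1 line for each culture. Lgr5 makes up 23.7% to 28.0% of the bars in DMSO and at most 0.106% at 3 µM, and the ratio on the right rises from 0.0815 to 0.127 in DMSO to 0.347 to 0.489 at 3 µM.

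Both ligases rose. Znrf3 (chromosome 11, 5276324-5444847, minus strand) stood at 15.997, 14.4 and 14.5 CPM in DMSO cultures 1, 2 and 3, at 21.0, 17.5 and 18.7 CPM at 1 µM, at 27.06, 23.4 and 21.8 CPM at 1.5 µM, and at 43.6, 37.8 and 27.12 CPM at 3 µM. It was higher at each higher dose in every culture. No library at 1.5 or 3 µM lay within the range of a lower dose. The log2 fold change was 0.69 ± 0.17 at 1.5 µM (adjusted p = 0.0136) and 1.27 ± 0.17 at 3 µM (adjusted p = 0.000146), and 0.59 ± 0.17 from 1.5 to 3 µM (adjusted p = 0.0243). The call at 1.5 µM was lost without 1.5 µM replicate 1, DMSO replicate 2 or DMSO replicate 3 (adjusted p of up to 0.0597). The step from 1.5 to 3 µM was lost without 3 µM replicate 1 or 2 or 1.5 µM replicate 2 or 3 (up to 0.0875), with scaling by library size only (adjusted p = 0.175), without a filter on low counts (0.0658) and with only the 2 groups fitted.

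Rnf43 (chromosome 11, 87662722-87735539, plus strand), the closest relative of Znrf3, stood at 37.7, 27.6 and 35.1 CPM in DMSO, at 64.2, 38.3 and 39.6 CPM at 1 µM, at 80.0, 57.3 and 55.3 CPM at 1.5 µM, and at 71.5, 56.9 and 48.2 CPM at 3 µM. It was highest at 1.5 µM in all 3 cultures. Every library at 1.5 and 3 µM lay above every DMSO library. The log2 fold change was 0.94 ± 0.24 at 1.5 µM (adjusted p = 0.0169). At 3 µM it was 0.81 ± 0.24 (adjusted p = 0.0151), and 3 of 3 cultures were higher at both doses. With scaling by library size only, which moved the median of all genes at 3 µM by -0.20 on the log2 scale (by -0.27 from 1.5 to 3 µM), the 3 µM value was 0.60 (adjusted p = 0.0619). It was also lost without 3 µM replicate 1 or DMSO replicate 2 (adjusted p of up to 0.0672), and the 1.5 µM call without 1.5 µM replicate 1 or DMSO replicate 2 (up to 0.0795).

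From 1.5 to 3 µM Rnf43 changed by -0.13 ± 0.24 (adjusted p = 0.716). The log2 ratio of Rnf43 to Znrf3 averaged 1.15 ± 0.19 (SD, n = 3) in DMSO. It averaged 1.27 ± 0.29 with 1 µM and 1.40 ± 0.14 with 1.5 µM, but 0.71 ± 0.12 with 3 µM. The 3 µM ratios lay below all others, but the slope on dose of -0.16 per µM missed the threshold (exact permutation p = 0.0684, adjusted p = 0.0855). Without the 3 µM group the slope had the opposite sign, 0.16 per µM (adjusted p = 0.116, exact permutation). Summed per length, the ligases stood at 7.00 ± 0.88 RPKM in DMSO and 13.6 ± 2.8 RPKM at 3 µM. Divided by the summed receptors, they gave 0.0815, 0.0990 and 0.127 in DMSO cultures 1, 2 and 3, 0.158, 0.142 and 0.170 at 1 µM, 0.234, 0.192 and 0.292 at 1.5 µM, and 0.379, 0.347 and 0.489 at 3 µM. No 2 groups overlapped in this ratio, and it was higher at each higher dose in every culture. RNA levels do not give the amounts of protein at the membrane.

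The co-receptors differed from each other. Lrp5 (chromosome 19, 3584828-3686564, minus strand) stood at 255, 198 and 249 CPM in DMSO, at 249, 221 and 220.3 CPM at 1 µM, at 243, 224 and 253 CPM at 1.5 µM, and at 221, 223 and 249 CPM at 3 µM. All groups overlapped, and the log2 change at 3 µM was -0.02 ± 0.11 (adjusted p = 0.892), the smallest standard error of the 10 genes. Lrp6 (chromosome 6, 134446476-134566965, minus strand) stood at 317, 292 and 252 CPM in DMSO, at 287, 271 and 227 CPM at 1 µM, at 240.1, 224 and 188 CPM at 1.5 µM, and at 156, 151 and 198 CPM at 3 µM. Every library at 1.5 and 3 µM lay below every DMSO library. The log2 change was -0.40 ± 0.14 at 1.5 µM (adjusted p = 0.0634, but 0.0400 with the culture as a block and 0.0347 with DESeq2) and -0.77 ± 0.15 at 3 µM (adjusted p = 0.00130). Culture 3 differed at the last step, going from 188 to 198 CPM where the others were lower.

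Within libraries, the log2 ratio of Lrp6 to Lrp5 went from 0.31, 0.56 and 0.02 in DMSO cultures 1, 2 and 3 to -0.50, -0.56 and -0.33 at 3 µM. The slope was -0.27 ± 0.13 per µM (exact permutation p = 0.000651, adjusted p = 0.00109), negative in 3 of 3 cultures. Lrp6 was thus lower at 3 µM both relative to Lrp5 and in CPM. Per length, the ratio of Lrp6 to Lrp5 averaged 0.886 in DMSO and 0.517 at 3 µM.

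Cultures differed in member levels at the same dose. In a model with group and culture, 5 of 10 members passed the test of a difference between cultures (Lgr4, Lgr6, Rspo2, Rspo3 and Rnf43), beside 28.8% of all genes. Adjusted p-values were 0.00350 for Rspo3, 0.00699 for Rspo2, 0.00732 for Lgr4, 0.0107 for Rnf43 and 0.0345 for Lgr6. Lgr4 was highest and Rspo3 lowest in culture 1 in 4 of 4 groups. Without DMSO replicate 1 or 1 µM replicate 1, 3 members were called. Lgr5, which changed most with dose, was not among them (adjusted p = 0.274).

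Other genes of the pathway were counted at 3 µM against DMSO in 3 lists, in the fit without the culture unless stated. Of 29 Wnt receptors and partners at the cell surface, 27 could be tested, and 8 were higher and 9 lower, with a median log2 change of -0.08 beside -0.03 over all genes. With the culture as a block 9 were higher and 11 lower. Of all genes tested 29.9% were higher and 27.7% lower in this comparison, and with the block 68.9% were called in either direction. The counts of all 3 lists are to be read against these shares. Tnfrsf19 (a TNF receptor family member, 4.27), Fzd10 (a Frizzled receptor, 4.02) and Vangl2 (planar cell polarity, 1.27) rose most among those called. Fzd4, a receptor for norrin and WNT (-3.38), Fzd9 (-2.97) and Reck, a WNT7 co-receptor (-1.91, adjusted p = 0.0489), fell most. Of the Frizzled genes, singled out after their values were seen, 6 fell (Fzd1, Fzd2, Fzd3, Fzd4, Fzd8 and Fzd9) and 2 rose (Fzd6 and Fzd10).

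Of 15 secreted inhibitors of WNT or LRP5/6, 10 could be tested, and 0 rose and 3 fell, with a median of -1.19. With the culture as a block 2 rose and 4 fell. The 3 that fell without the block were Sfrp2 (-5.67) and Sfrp1 (-4.55), which bind WNT, and Igfbp4 (-3.67), an IGF-binding protein. Dkk1, a ligand that blocks LRP5/6, had too few counts to test and was at 0 in 10 of 12 libraries. Of 12 β-catenin target genes with feedback roles, 11 could be tested, and 5 rose and 2 fell, with a median of 0.70. With the culture as a block 5 rose and 3 fell. Without the block, Axin2 (4.92), Ascl2 (4.07) and Tcf7 (2.62) rose most, and Cd44 (-1.27) and Bambi (-0.42) fell. Znrf3 and Rnf43, with 1.27 and 0.81, therefore moved in the direction of Axin2 by smaller amounts, and Lgr5 in the opposite direction.

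The genes most like each receptor and Znrf3 were sought by Pearson's r of log2 CPM over the 12 libraries, among genes averaging at least 50 counts. These values are a description, since the 12 libraries share 3 cultures and 4 doses. For Lgr5 they were Chrm1 (a muscarinic acetylcholine receptor, r = 0.996), Prelp (a matrix proteoglycan, r = 0.990) and Ncald (neurocalcin, r = 0.990). Prelp stood at 143 to 250.4 CPM in DMSO and at 1.52 to 2.25 CPM at 3 µM, and Chrm1 at 9.34 to 11.4 and 0.207 to 0.321 CPM. For Znrf3 they were Ddx20 (0.993), Utp14a (0.991) and Nbeal2 (0.990), for Lgr4 Lrrc8d (0.976), Foxo4 (0.976) and Atxn1l (0.955), and for Lgr6 Rchy1 (0.970), Rap1gap2 (0.969) and Zbtb22 (0.954). Lrrc8d, Foxo4 and Atxn1l all had the culture order of Lgr4 in DMSO, Lrrc8d at 116, 85.9 and 64.5 CPM in cultures 1, 2 and 3. They were picked for their likeness to Lgr4 over these same libraries, so the shared order is no separate result.

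Promoters of 4 of the 10 members (Lgr4, Lgr6, Rspo1 and Rnf43) were in the RefSeq table used (GRCm38.p6). The core letters that TCF/LEF factors bind, CTTTG followed by 2 further bases that are each A or T, were searched on both strands in the 250 bases before each start. These 4 genes held 0 matches, while 14.8% of the 32851 promoters in the table held at least 1. No match says only that these letters are not in this window.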

How the data were processed

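Gene counts of 12 bulk RNA libraries (stranded, polyadenylated RNA) were analysed. The authors deposited raw read counts per Ensembl gene. Per the submitters' processing notes, TopHat2 2.1, Bowtie 1.1.0, HTSeq and DESeq2 were used with GRCm38 (mm10), and whether counting used strand is not given in the sources used here. The deposited log2 table equals log2 of each count, scaled to a common library total, plus 1 (0 values differed by over 1e-06) and was not used. No row names anything but a gene. Library totals ran from 10129264 to 24485855 counts, and no molecular identifiers are described, so intervals and bounds of 3 counts cover counting error only.

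Genes were filtered with filterByExpr (minimum count 10) on the 4 groups, scaled with TMM factors (trimmed mean of M values), and tested with edgeR 4.0.16 in R 4.3.3 (robust glmQLFit and two-sided glmQLFTest), with 1 mean for each group and all 12 libraries in the fit. Calls use a Benjamini-Hochberg adjusted p under 0.05 over 15316 genes. CPM uses TMM-scaled totals, and RPKM divides it by merged GENCODE M21 exon length. Paralog ratios were tested by exact permutation of dose within culture. Both tests were tested on simulated data. The edgeR simulation drew independent libraries without differences between cultures, which these data have, so it does not cover that part of the design. Replicates of a group differed by more than sampling noise (chi-square per degree of freedom at least 13.8).

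Per the series' design text, 3 cultures (rep1 to rep3) from 3 animals each received all 4 treatments, so a replicate number marks 1 culture. Deviations from group means correlated between same-numbered libraries with r from 0.18 to 0.84 (18 pairs, median 0.505) and a median of -0.21 over 36 other pairs. Centring on group means makes the other pairs negative where same-numbered ones are positive, so the -0.21 is no separate support. The numbers pair the libraries, as the design text states, and a fit with the number as a block was an alternative. Others were DESeq2 1.42.0, library size only, RLE factors, no filter, 2 groups fitted alone, and each library or culture left out.

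Members and lists were chosen with earlier results of these data known. Named are all 10 members, the 3 largest called changes in each direction of each pathway list, and the 3 genes most correlated with each of Lgr4, Lgr5, Lgr6 and Znrf3 (prior count 2). Sequences come from GRCm38 and RefSeq.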

Additional observations from a re-analysis of the deposited data

How the results depend on the processing

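Each culture gave 1 library per dose, and the lowest levels rest on few counts, which limits what could be detected. With the replicate number as a block, the members called went from 0 to 1 at 1 µM (5.61% of all genes with the block), from 3 to 6 at 1.5 µM (46.7%) and from 1 to 3 between 1 and 1.5 µM (21.9%). The block changed the calls of Lgr5 at 1 µM (adjusted p = 0.0387), Rspo2 at 1.5 µM (0.00359) and from 1 to 1.5 µM (0.0249), Rspo3 at 1.5 µM (0.00280), 3 µM (0.00136) and per µM (0.00207), Lrp6 at 1.5 µM (0.0400), Rnf43 from 1 to 1.5 µM (0.0277) and Lgr4 from 1.5 to 3 µM (0.00479), all edgeR values, and no other call. With the block, a setting chosen for these markers after seeing the data, 7 of 8 fibroblast markers were called at 3 µM in place of 1. DESeq2 called 1 member at 1 µM (3.25% of all genes it tested) and 5 at 1.5 µM (29.6%). Without a filter on low counts 0 were called from 1 to 1.5 µM (1.96% of all genes) and 1 from 1.5 to 3 µM (13.5%), and with only 2 groups fitted 0 from 1 to 1.5 µM (6.54%). Scaling by library size alone called 6 members at 3 µM (1 higher, 57.4% of all genes), 3 from 1.5 to 3 µM (0 higher, 32.1%) and 7 per µM (1 higher, 54.8%). RLE factors changed no call.

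With 1 library or 1 culture left out, the members called ranged from 0 to 4 at 1.5 µM and from 2 to 7 at 3 µM (both lowest without culture 2), 0 to 1 from 1 to 1.5 µM, 1 to 4 from 1.5 to 3 µM, 3 to 8 per µM and 3 to 6 between cultures. The Lgr6 to Lgr4 slope ranged from 0.077 to 0.42, and was 0.42 without culture 3, where it passed the threshold (adjusted p = 0.00434, exact permutation). Without the 3 µM group the Rnf43 to Znrf3 slope was 0.16 (adjusted p = 0.116, exact permutation), opposite in sign to the full value. Of the 1245 single-member values under an alternative, 43 changed sign, none of which had been called. With 1 library or culture left out, those log2 changes ranged at 1 µM from -0.47 to 0.19 for Lgr4, -0.083 to 0.40 for Lgr6, -0.31 to 1.64 for Rspo1, -1.56 to 0.29 for Rspo2 and -0.14 to 0.065 for Lrp5 (0.050 by library size alone). At 1.5 µM they ranged from -0.61 to 0.067 for Lgr4, -0.091 to 0.53 for Lgr6, -1.57 to 0.99 for Rspo1 and -0.096 to 0.11 for Lrp5. At 3 µM they ranged from -0.54 to 0.082 for Lgr6 and -0.15 to 0.083 for Lrp5. From 1 to 1.5 µM they ranged from -0.31 to 0.13 for Lgr4, -0.19 to 0.35 for Lgr6 (-0.017 with the replicate block) and -0.0085 to 0.12 for Lrp5. From 1.5 to 3 µM they ranged from -0.78 to 1.08 for Rspo3 and -0.28 to 0.063 for Rnf43, and per µM from -0.20 to 0.030 for Lgr6 and -0.037 to 0.032 for Lrp5. The cause was not tested.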

Other observations

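Rspo4, the fourth R-spondin, is not one of the 10 genes and had too few counts to be tested. It had at most 6 counts in 11 of the 12 libraries and 75 counts (5.18 CPM) in 3 µM replicate 3. That library also held the lowest Lgr4, Lgr5 and Lgr6 levels of all 12.

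Wif1, a secreted WNT inhibitor, stood at 10.4, 4.87 and 9.32 CPM in DMSO cultures 1, 2 and 3, at 33.9, 22.4 and 24.1 CPM at 1 µM, at 51.2, 50.5 and 20.05 CPM at 1.5 µM, and at 17.7, 21.5 and 11.0 CPM at 3 µM. Its log2 change from DMSO was 2.29 ± 0.42 (SE) at 1.5 µM (adjusted p = 0.00362, edgeR) and 1.01 ± 0.41 at 3 µM (adjusted p = 0.0551). From 1.5 to 3 µM it fell by 1.28 ± 0.40 (adjusted p = 0.0382), and all 3 cultures were lower at 3 µM. Wif1 was singled out after its values were seen.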
